A study of Danio rerio with 10 samples.

Results

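The heat shock proteins and chaperonins were read in sorted zebrafish somite progenitors as 79 RefSeq records out of the 14720 in the count table. Records were taken by symbol, those that start with hspa, hspb, hspd, hspe, hsp70, hsp90, dnaja, dnajb or dnajc, together with *tcp1*, *cct2*, *cct3*, *cct4*, *cct5*, *cct6a*, *cct7* and *cct8*. Sorted by symbol they made up 12 hspb records, 2 of HSP60 and HSP10, 13 of HSP70, 4 of HSP90, 40 J-domain records and 8 chaperonin subunits, and no symbol occurred more than once. In the group called spt_cMO, wild-type AB embryos had received caged fluorescein-dextran and a caged morpholino against *spadetail* (*tbx16*, a T-box factor of mesoderm progenitors). The control group consisted of AB embryos with caged fluorescein-dextran alone, with no morpholino at all, so the loss of *spadetail* and the presence of any morpholino cannot be told apart. Both groups were injected at an early cleavage stage, lit at 360 nm through a diaphragm of 100 µm over the ventral somite progenitors at 6 hours post-fertilization (hpf), and sorted for fluorescein at 9 hpf. Each held 5 biological replicates, numbered 1 to 5, and the labels do not say how many embryos went into each.

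Chaperones are proteins that bind other proteins while they fold or when they have lost their shape. HSP70 proteins hold short exposed stretches of a client in a cycle driven by ATP, J-domain proteins bring them clients and set off that ATP cycle, and HSP90 proteins act later on clients such as kinases and steroid receptors. Small heat shock proteins keep unfolded proteins from clumping without using ATP. HSP60 with its lid HSP10 folds proteins inside mitochondria, and the chaperonin CCT, a double ring built from different but related subunits, folds actin and tubulin in the cytosol. Some family members are made at all times and others mainly after heat or other stress, under heat shock factors.

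CEL-seq counts tags from the 3′ ends of transcripts, so levels are given as counts scaled to library size (CPM, with factors from the trimmed mean of M-values, TMM) and were not divided by transcript length. Libraries held between 2036973 and 9374914 counts in spt_cMO and between 3365785 and 7968446 in control. A count of 3 corresponded to 0.317 to 1.46 CPM in spt_cMO libraries and 0.374 to 0.888 CPM in control libraries, a limit that covers counting error only. Markers of the labelled cell type were present. The 23 paraxial and presomitic mesoderm markers summed to 3435 to 5185 CPM in spt_cMO libraries and 7464 to 9661 CPM in control libraries. Much of these sums was *msgn1* alone, which averaged 2022 CPM in spt_cMO and 5817 CPM in control. Without a replicate block 10 of 20 tested fell and none rose. With replicate numbers as a block, 11 fell and 1 rose. The one that rose was *tbx16*, the target itself, at 544, 461, 575, 392 and 649 CPM in spt_cMO libraries 1 to 5 and 419, 320, 362, 390 and 431 CPM in control libraries 1 to 5 (log2 fold change 0.43, adjusted p = 0.0172 by edgeR with the block and 0.0897 without it). A morpholino need not lower the transcript of its target, so these values are no check of the labels. Enveloping layer and epidermis markers summed to 352 to 709 CPM in spt_cMO libraries and 241 to 514 CPM in control libraries, and neural ectoderm markers to 662 to 879 CPM in spt_cMO libraries and 662 to 815 CPM in control libraries. None of the 10 and 11 tested genes of these lists passed, nor did any of 4 endoderm, 1 yolk syncytial layer, 4 primordial germ cell and 4 hatching gland markers.

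A few transcripts supplied most of the chaperone signal. The members together took 4.98% of all counts, and *hspb1*, *hsp90ab1* and *hspa8* made up 84.2% of that. The small heat shock gene *hspb1* (NM_001008615) alone made up 52.8%. Its mean level was 2.85 times that of *hsp90ab1*, the next member. It was the most counted record of the whole table in 6 of the 10 libraries, and the actin gene *actb2* was first in the other 4. Of the members, 5 averaged over 1000 CPM, 15 between 100 and 1000 CPM and 34 of the tested ones at most 100 CPM. The filter on low counts passed 54 members. The other 25 were not tested, of which 21 had between 1 and 81 counts over all libraries and 4 (*hspa1b*, *hspa12a.3*, *dnaja3b* and *hspb9l*) had none.

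**Figure D1:**
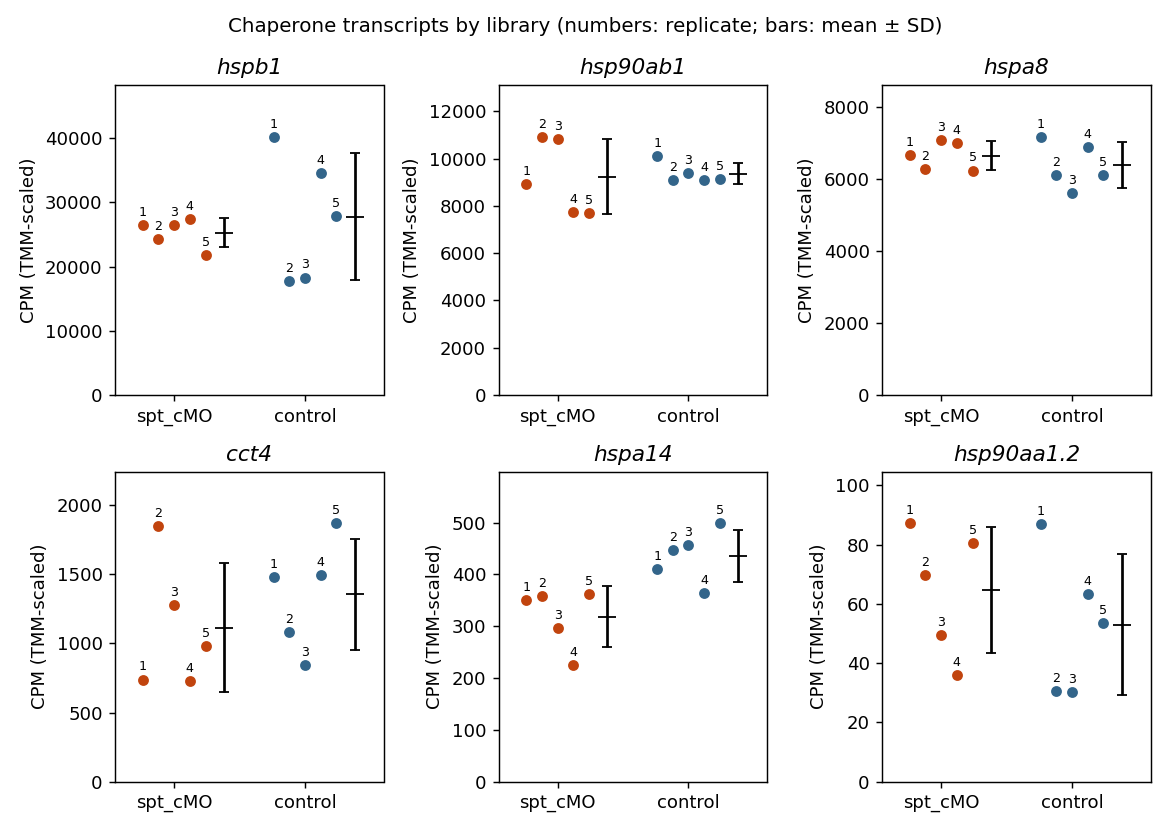
Levels of 6 members in each library, in CPM on axes that start at 0, with spt_cMO left of control; points are libraries with their replicate number, and bars are the mean and SD of 5 libraries. *hspb1* lay between 21774 and 27366 CPM in spt_cMO and between 17708 and 40239 CPM in control, and *hspa14* was the only one of the 6 whose groups did not overlap.

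Both groups were compared to ask which transcripts of somite progenitors depend on *spadetail*. On the filtered counts, edgeR's quasi-likelihood test called no heat shock or chaperonin gene at an adjusted p of 0.05 without a replicate block. With the block it called 1, *hspa14*. Of all 6570 tested records it called 1.78% (0.807% higher and 0.974% lower) without the block. With the block it called 2.75% (1.34% higher and 1.42% lower). Without the block, 27 of the 54 tested members had a positive and 27 a negative log2 fold change. Their median was -0.0021, where all tested records had 0.0011. An unadjusted p under 0.05 was reached by 5 members, *hspa14*, *dnaja1*, *dnaja3a* and *dnajc24* on the lower side and *hsp90aa1.1* on the higher side. That is 9.26% of the members, beside 9.44% of all tested records (4.6% higher and 4.84% lower). With replicate numbers as a block it was reached by 3 members, all lower (*hspa14*, *dnaja1* and *dnaja3a*), or 5.56%, beside 11.4% of all tested records (5.49% higher and 5.86% lower). The groups did not overlap in 1 member, *hspa14*, or 1.85%, against 3.06% of all tested records (1.43% higher and 1.63% lower). The same-numbered libraries met the threshold of 0.1 set for treating them as pairs, as given below. Log2 fold changes and adjusted p values are still from the fit without the block unless another fit is named. The call of *hspa14* with the block, 1.85% of the members, was 1 of 181 records. Without a block, DESeq2 called *hspa14* among 168 of the 6570 records, and edgeR with no filter on low counts among 164 of 13008.

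The precision of the comparison without the block can be read from the intervals, and all intervals given here come from that fit. The 95% interval of the fold change, taken gene by gene, lay within 1.5-fold in either direction for 30 of the 54 tested members and within 2-fold for 48. Within 1.5-fold that is 55.6% of the members, beside 63% of all tested records. Of all 6570 tested records, 5956 had an interval within 2-fold. For 24 members a change of 1.5-fold was thus not outside the interval. Counts simulated with the means and depths of these 10 libraries gave a recovery of 48% for genes changed 1.5-fold and 88% for those changed 2-fold. Changed genes were drawn from all tested records, and each gene had the spread typical of its abundance, with no replicate effect. The recovery thus does not cover members with a wider spread, such as *cct4*, *hsp90aa1.2* and *hspb1*.

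**Figure D2:**
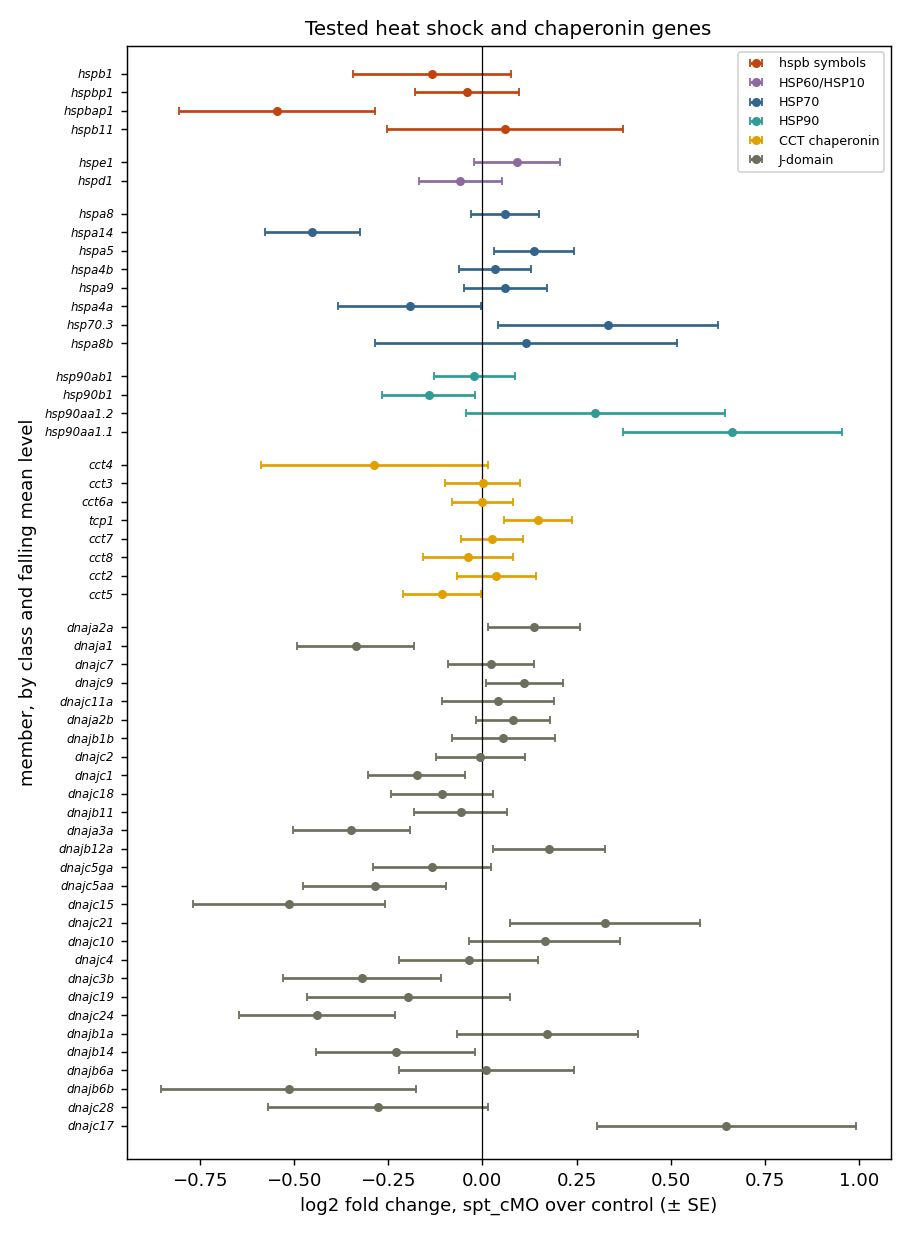
Log2 fold changes of spt_cMO over control for the 54 tested members, grouped by class and ordered by falling mean level; points are estimates and bars their standard errors. The fit held no replicate block. Values run from -0.55 for *hspbap1* to 0.66 for *hsp90aa1.1*, and no member passed an adjusted p of 0.05. With the block *hspa14* passed (adjusted p = 0.00606 by edgeR).

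Among the small heat shock records, *hspb1* was high and the others low. Its level was 26423, 24343, 26428, 27366 and 21774 CPM in spt_cMO libraries 1 to 5, and 40239, 17708, 18288, 34521 and 27887 CPM in control libraries 1 to 5. The spt_cMO libraries stood close together inside the range of the controls, which formed a high pair (1 and 4) and a low pair (2 and 3) with control 5 between them. The means were 25267 ± 2244 CPM in spt_cMO and 27729 ± 9902 CPM in control (SD, n = 5 each), a log2 fold change of -0.13 (SE 0.21) that did not pass (edgeR's adjusted p = 0.927). Its 95% interval ran from 0.663-fold to 1.25-fold. Without control replicate 1 the log2 fold change was 0.04, and spt_cMO was lower than control in 3 of the 5 same-numbered pairs. In shares of all counts, *hspb1* took 2.21% to 2.76% in spt_cMO libraries and 1.78% to 3.97% in control libraries.

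The other hspb symbols cover proteins of several kinds. *hspbp1*, which encodes a nucleotide exchange factor of HSP70, averaged 30.5 ± 6.07 CPM in spt_cMO and 32.0 ± 2.36 CPM in control (SD, n = 5 each). *hspbap1*, named for a partner of the HSPB1 protein, had the most negative log2 fold change of all tested members, -0.55 (SE 0.26), at 3.08 ± 0.294 CPM in spt_cMO and 4.33 ± 1.1 CPM in control (adjusted p = 0.533 by edgeR). With the block the lowest was the J-domain gene *dnajc15* at -0.485, beside -0.479 for *hspbap1*. *hspb11*, the remaining tested hspb record, stood at 3.47 CPM in spt_cMO and 3.44 CPM in control. Small heat shock genes known mainly from muscle and heart were close to absent. *hspb2*, *hspb3*, *hspb6* and *hspb7* had 6, 1, 2 and 1 counts over all 10 libraries, *hspb8* had 44, *hspb9* 20 and *hspb15* 23. No count fell on *hspb9l*, which allows up to 0.0626 CPM over the pooled libraries.

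In the HSP70 family, *hspa8* (the constitutive cytosolic HSP70) stood far above the rest, with 6648, 6277, 7086, 6982 and 6228 CPM in spt_cMO libraries 1 to 5 and 7169, 6107, 5597, 6869 and 6113 CPM in control libraries 1 to 5. The groups overlapped almost completely, at a log2 fold change of 0.06 (SE 0.09) and a 95% interval from 0.913-fold to 1.19-fold. *hspa5*, the HSP70 of the endoplasmic reticulum, averaged 269 ± 32.4 CPM in spt_cMO and 244 ± 26.6 CPM in control, and *hspa9*, the mitochondrial one, 128 ± 17.2 CPM in spt_cMO and 123 ± 12.4 CPM in control (SD, n = 5 each). Neither passed (adjusted p = 0.799 and 0.943 by edgeR). *hspa4b*, whose relatives in mammals are nucleotide exchange factors of HSP70, was among the more even members, between 140 and 173 CPM in spt_cMO and between 135 and 166 CPM in control. *hspa8* spans small nucleolar RNA genes in the annotation used for names. Other genes also overlap *hspa5*, *hsp70.3*, *hsp90b1*, *cct5*, *dnajc2*, *dnajc7*, *dnajc15* and *dnajc17* there, among others. The counter's use of strand is not stated, so reads of overlapping genes could have been joined.

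*hspa14* came closest to a difference among the members in the filtered edgeR fit without the block, and passed with the block. It also passed without a block by DESeq2 (adjusted p = 0.0436) and by edgeR with no filter on low counts (adjusted p = 0.0131). In mammals its protein sits on ribosomes together with the J-domain protein DNAJC2 and meets new chains as they leave. It was counted at 351, 359, 296, 225 and 363 CPM in spt_cMO libraries 1 to 5, and at 411, 447, 456, 364 and 499 CPM in control libraries 1 to 5. All 5 spt_cMO libraries lay below the lowest control library, by a narrow margin of 362.8 CPM in spt_cMO replicate 5 against 364.2 CPM in control replicate 4. The means were 319 ± 58.9 CPM in spt_cMO and 435 ± 50.5 CPM in control (SD, n = 5 each), a log2 fold change of -0.45 (SE 0.13) and a 95% interval from 0.608-fold to 0.879-fold, which missed the threshold (edgeR's adjusted p = 0.0869). In edgeR with replicate numbers as a block it fell (log2 fold change -0.46, SE 0.094, adjusted p = 0.00606), lower in 5 of 5 pairs. With that block 2.75% of all tested records passed (1.34% higher and 1.42% lower). The authors' deposited table gives a log2 fold change of -0.46 and an adjusted p of 0.00043 and calls 3.58% of its records. It rests on the same libraries and on a likelihood ratio, not the quasi-likelihood test, so it is no separate evidence. Its log2 fold changes for *hspb1* (-0.058) and *hsp90aa1.1* (0.56) lay nearer those with the block (-0.063 and 0.55) than those without it (-0.13 and 0.66). How many other members do so was not counted. Without single libraries *hspa14* passed in none of 10 fits without a block. The highest adjusted p was 0.247 by edgeR, without control replicate 5. It did not pass that fit with all libraries either, and the block fit was not repeated without single libraries. These refits therefore cannot show whether the call with the block rests on 1 library. Without spt_cMO replicate 4, the lowest library, the log2 fold change was -0.35 with no block. The gene for its ribosome partner, *dnajc2*, averaged 50.6 ± 5.27 CPM in spt_cMO and 50.7 ± 6.2 CPM in control (SD, n = 5 each), at a log2 fold change of -0.0048 (SE 0.12). The paraxial marker sums given above were also lower in spt_cMO. The notochord and axial mesoderm markers summed to 39.0 to 81.4 CPM in spt_cMO libraries and 33.7 to 56.3 CPM in control libraries, ranges that overlapped. Only 1 of 5 tested passed, *shha*, higher but low, at 6.21 CPM in spt_cMO and 1.80 CPM in control. The part of such marker differences in the *hspa14* result was not tested, and in bulk samples fewer cells of a type and less RNA per cell cannot be told apart.

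Stress-inducible HSP70 genes were counted at low levels in both groups. *hsp70.3* had 6.03, 4.39, 5.52, 4.16 and 7.62 CPM in spt_cMO libraries 1 to 5 and 5.02, 3.49, 3.85, 7.64 and 2.62 CPM in control libraries 1 to 5. The ranges overlapped, with a log2 fold change of 0.33 (SE 0.29, adjusted p = 0.838 by edgeR) and a 95% interval that reached 1.93-fold. Single libraries moved the log2 fold change, which was 0.61 without control replicate 4 and 0.17 without control replicate 5. *hsp70l* had 18, 2, 1, 6 and 3 counts in spt_cMO libraries 1 to 5 and 5, 3, 6, 9 and 8 counts in control libraries 1 to 5, too few for the test, and *hspa1b* had none in any library. The hsp70 copies resemble each other closely and may have shared reads, so single values are uncertain, as are those of *hspa8b* beside *hspa8*.

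The HSP90 genes were led by *hsp90ab1*, the constitutive cytosolic form. It had 8929, 10928, 10828, 7745 and 7692 CPM in spt_cMO libraries 1 to 5 and 10122, 9093, 9377, 9092 and 9130 CPM in control libraries 1 to 5. Here spt_cMO was the wider group, with replicates 2 and 3 above every control library and the other 3 below all of them. Its log2 fold change was -0.02 (SE 0.11, 95% interval from 0.842-fold to 1.15-fold). *hsp90b1*, the form of the endoplasmic reticulum, averaged 120 ± 19.0 CPM in spt_cMO and 132 ± 17.9 CPM in control (adjusted p = 0.836 by edgeR, n = 5 each).

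The *hsp90aa1* copies, of which *hsp90aa1.1* serves muscle myosin folding in zebrafish, stood much lower and are close relatives that could have shared reads. *hsp90aa1.2* had 87.1, 69.7, 49.6, 36.1 and 80.6 CPM in spt_cMO libraries 1 to 5 and 86.9, 30.7, 30.2, 63.2 and 53.5 CPM in control libraries 1 to 5. Each group spread more than 2-fold, and the 95% interval of the group difference, from 0.723-fold to 2.1-fold, was wide. Its log2 fold change was 0.30, with 0.15 without spt_cMO replicate 1 or control replicate 2, 0.17 without control replicate 3, 0.46 without spt_cMO replicate 4 and 0.54 without control replicate 1. *hsp90aa1.1* had 7.62, 4.88, 4.04, 3.64 and 5.21 CPM in spt_cMO libraries 1 to 5 and 4.77, 2.49, 2.66, 4.67 and 2.62 CPM in control libraries 1 to 5. Its log2 fold change of 0.66 (SE 0.29) was the most positive among the tested members, but the groups overlapped and it did not pass (edgeR's adjusted p = 0.463). Without spt_cMO replicate 1 it was 0.38, and with the block it was 0.55, below the 0.63 of *dnajc17*.

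The mitochondrial chaperonin genes moved little. *hspe1*, the HSP10 lid, averaged 480 ± 76.6 CPM in spt_cMO and 451 ± 47.7 CPM in control, and *hspd1*, the HSP60 barrel, averaged 269.5 ± 44.7 CPM in spt_cMO and 281.6 ± 21.8 CPM in control (SD, n = 5 each). Both 95% intervals lay within 1.5-fold, and neither gene passed (adjusted p = 0.907 and 0.947 by edgeR).

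Among the subunits of the cytosolic chaperonin CCT, *cct4* varied most across the libraries. The log2 fold changes of *cct3*, *cct6a*, *cct7*, *cct2*, *cct8*, *cct5* and *tcp1* were 0.0007, 0.0005, 0.02, 0.04, -0.04, -0.11 and 0.15, and all 7 intervals lay within 1.5-fold. *cct6a* averaged 540.1 ± 13.9 CPM in spt_cMO and 539.9 ± 15.2 CPM in control (SD, n = 5 each). Its highest library was 1.08 times its lowest, and for the 7 subunits other than *cct4* this ratio was at most 1.54. Together these 7 subunits summed to 2997 to 3468 CPM in spt_cMO libraries and 3096 to 3341 CPM in control libraries. *cct4* had 739, 1846, 1276, 725 and 978 CPM in spt_cMO libraries 1 to 5 and 1480, 1081, 845, 1496 and 1868 CPM in control libraries 1 to 5. It was high in spt_cMO 2 and 3 and in control 1, 4 and 5, with the highest library 2.58 times the lowest, and its share of the CCT signal ran from 18.8% to 36.5% in spt_cMO and from 21.0% to 35.9% in control. The log2 fold change was -0.29 (SE 0.30, adjusted p = 0.891 by edgeR), and without spt_cMO replicate 2 it was -0.54. Without control replicate 5 it was -0.14, and without spt_cMO replicate 1 or 4 it was -0.17.

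*hspa4a*, an HSP70 relative named here after its values were seen, divided the libraries in the same way as *cct4*. It had 63.5, 91.7, 97.1, 56.4 and 65.3 CPM in spt_cMO libraries 1 to 5 and 96.9, 65.9, 59.5, 110.7 and 90.4 CPM in control libraries 1 to 5. In both genes spt_cMO 2 and 3 and control 1, 4 and 5 were the 5 highest libraries. This order does not follow the groups, and the same-numbered libraries of the groups lie on opposite sides of it. How many of all tested records have the same 5 highest libraries was not counted, so the match may be common.

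**Figure D3:**
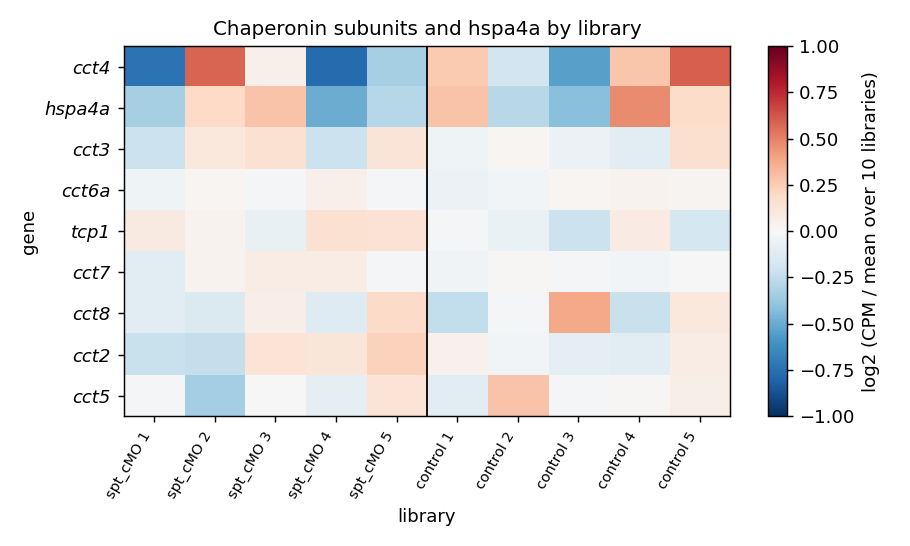
Log2 of CPM over the mean of all 10 libraries for the 8 chaperonin subunits and *hspa4a*, with spt_cMO libraries left of the control libraries and the colour scale from -1 to 1. *cct4*, from 725 to 1868 CPM, and *hspa4a*, from 56.4 to 110.7 CPM, share their high and low libraries, while *cct6a* is nearly flat. *hspa4a* was added after its values were seen.

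The J-domain genes were many and mostly low. Of 40 records 28 were tested, 26 of them at most 100 CPM on average. *dnaja2a*, a cytosolic partner of HSP70, led with 520 ± 109 CPM in spt_cMO and 473 ± 34.2 CPM in control (SD, n = 5 each), followed by *dnaja1* and, far below, *dnajc7*, a cytosolic co-chaperone, with 90.9 ± 14.3 CPM in spt_cMO and 89.5 ± 7.73 CPM in control. *dnaja1*, another cytosolic partner of HSP70, had 294.6, 197, 255, 148 and 218 CPM in spt_cMO libraries 1 to 5 and 291, 229, 329, 271 and 289 CPM in control libraries 1 to 5. It was lower in 4 of 5 pairs and the groups overlapped, with a log2 fold change of -0.34 (SE 0.15, edgeR's adjusted p = 0.515). The block gave -0.37 (adjusted p = 0.0865), and without spt_cMO replicate 4 the log2 fold change was -0.22.

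Lower J-domain genes gave no call either. *dnaja3a*, whose mammalian relative works in mitochondria, had 24.3, 14.6, 25.0, 18.7 and 20.4 CPM in spt_cMO libraries 1 to 5 and 34.4, 24.4, 24.9, 24.4 and 25.8 CPM in control libraries 1 to 5. Control replicate 1 stood above all others. Of the 5 spt_cMO libraries 4 lay below every control library, replicate 1 only narrowly, and replicate 3 lay within the control range. The log2 fold change was -0.35 (SE 0.16, adjusted p = 0.481 by edgeR), and -0.25 without control replicate 1. With the block it was -0.39 (adjusted p = 0.188 by edgeR). *dnajc24*, whose mammalian relative takes part in diphthamide synthesis, averaged 6.6 ± 1.81 CPM in spt_cMO and 9.27 ± 1.04 CPM in control, with a log2 fold change of -0.44 (SE 0.21, adjusted p = 0.521 by edgeR, n = 5 each). It overlaps *pax6a* in the annotation used for names. *dnajc17* had the most positive log2 fold change of the class, 0.65 (SE 0.34), at 2.78 CPM in spt_cMO and 1.85 CPM in control (adjusted p = 0.619 by edgeR). It had only 104 counts over all 10 libraries. The other 22 tested J-domain genes had log2 fold changes from -0.51 to 0.33 and adjusted p of 0.567 or higher.

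The members spread among replicate libraries about as much as all tested records. Relative to the trend with abundance, *cct4*, *hsp90aa1.2* and *hspb1* spread most among them. Spread was read as the biological coefficient of variation of each gene (BCV, the variation left after counting error) over the value that the trend gives for its abundance. The median ratio was 0.908 over the tested members and 0.906 over all tested records. The ratio was 2.37 for *cct4*, 2.34 for *hsp90aa1.2* and 1.70 for *hspb1*, which put them at percentiles 98.9, 98.8 and 96.6 of all tested records. These were the only 3 members over 1.5, or 5.56%, against 5.27% of all tested records. The lowest ratio among the members was 0.70, for *hspbap1*, and *cct6a* had 0.73, at percentile 6.83 of all tested records. By another measure, the SD of log2 CPM within groups, *cct6a* stood at 0.04, or percentile 0.0304. On that measure *cct4* had 0.51, *hsp90aa1.2* 0.60 and *hspb1* 0.39, at percentiles 90.3, 94.6 and 78.0. Some members with few counts were higher there, such as *hspa8b* at 0.745. *hsp90ab1* and *hspa8*, the next most abundant members after *hspb1*, had ratios of 0.96 and 0.84.

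**Figure D4:**
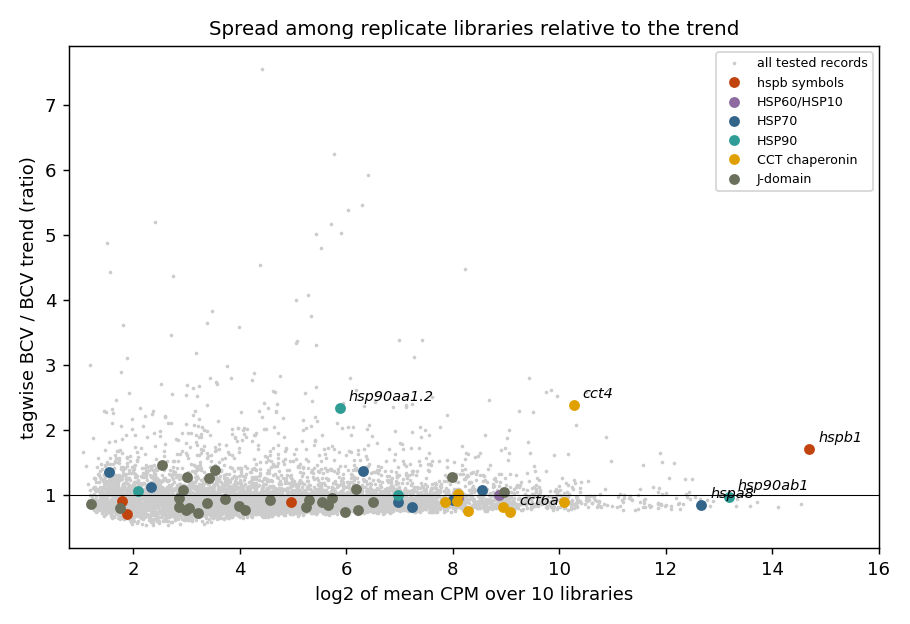
Ratio of each gene's BCV to the abundance trend against log2 of its mean CPM over 10 libraries, for all 6570 tested records (grey) and the 54 tested members (coloured by class); the line marks a ratio of 1. *cct4* at 2.37, *hsp90aa1.2* at 2.34 and *hspb1* at 1.70 stand above the other members.

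Summed over classes, the difference between the group means was smaller than the larger of the SDs in all 6. The small heat shock records, nearly all *hspb1*, summed to 25306 ± 2250 CPM in spt_cMO and 27770 ± 9901 CPM in control, and HSP60 and HSP10 to 749 ± 117 CPM in spt_cMO and 733 ± 28.6 CPM in control (SD, n = 5 each). HSP70 records summed to 7599 ± 328 CPM in spt_cMO and 7417 ± 649 CPM in control, HSP90 records to 9414 ± 1605 CPM in spt_cMO and 9552 ± 472 CPM in control, CCT subunits to 4347 ± 547 CPM in spt_cMO and 4548 ± 440 CPM in control, and J-domain records to 1443 ± 144 CPM in spt_cMO and 1470 ± 50.6 CPM in control (SD, n = 5 each). All members together summed to 43546 to 52175 CPM in spt_cMO libraries and 40665 to 65698 CPM in control libraries, a spread that *hspb1* dominated. These sums were not tested.

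Partners and regulators of the chaperones, and a list of immediate early genes, gave no call without the block. Across these 7 lists, 75 tested records that are not members held none that passed. The lowest adjusted p was 0.116 by edgeR's quasi-likelihood test, for the immediate early gene *klf2a*. An unadjusted p under 0.05 was reached by 8 (5 higher and 3 lower), or 10.7%, immediate early genes included. Of all tested records 1.78% passed and 9.44% had an unadjusted p under 0.05. None passed among 3 tested genes of heat shock factors and their binding proteins, 8 HSP70 co-chaperone genes, 20 HSP90 co-chaperone genes, 8 prefoldin and chaperonin helper genes, 18 genes of folding in the endoplasmic reticulum, 3 of other small stress proteins and proteases and 17 immediate early genes. The heat shock factor gene *hsf2* averaged 74.9 CPM in spt_cMO and 81.4 CPM in control. The largest log2 fold changes in these lists were those of *hsbp1a* (-0.28), *bag4* (-0.33), *unc45b* (-0.76), which encodes a myosin co-chaperone, *pdcd5* (-0.17), *sdf2l1* (0.69), *hspbap1* as given above and *gadd45bb* (-0.54). With the block, the immediate early list held 1 call, *klf2a*, at 97.0 CPM in spt_cMO and 72.6 CPM in control (log2 fold change 0.41 without the block, adjusted p = 0.0249 with it). That is 1.33% of the 75 records, beside 2.75% of all tested records with the block. The immediate early genes, which cell dissociation is known to induce, summed to 3056 to 4225 CPM in spt_cMO libraries and 3256 to 4077 CPM in control libraries.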

How the data were processed

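The authors deposited raw read counts per RefSeq record, aligned to the assembly Zv8 with CEL-seq scripts in Galaxy per the series' design text; aligner, counter, strand use and versions are not given in the sources used here. No molecular identifiers are mentioned, so counts are treated as reads. The authors' deposited comparison holds log2 fold changes and mean log2 CPM, a likelihood ratio score and p-values, made with edgeR per the submitters' processing notes. It lists 6923 records, of which 127 were higher and 121 lower at 0.05.

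For symbols, 13986 of 14720 records matched a RefSeq table of another assembly (GRCz12tu, used for names only); records without a symbol took 1.4% to 1.62% of counts and stayed in the tests. In R 4.3.3 with edgeR 4.0.16, filterByExpr (minimum count 10, total 15, proportion 0.7) left 6570 records, scaled by TMM and compared by the robust quasi-likelihood test, spt_cMO over control, with Benjamini-Hochberg adjustment over all. DESeq2 1.42.0, other scalings and filters, a replicate block and omission of each library were alternatives. In the self-test 6 of 172 calls were unchanged genes.

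The members and gene lists were chosen with earlier results of these data known. Genes named were those with an unadjusted p under 0.05, the 10 most abundant, the 3 most abundant and the most changed per class, the tested hsp70 symbols, the 3 most variable and all chaperonin subunits, and per partner list those that passed or the most changed. *hspa4a*, *hspa4b*, *hspa8b*, *hspa9*, *hspb11*, *dnajc2*, *dnajc15*, *tbx16*, *msgn1* and the members too low to test were named outside this rule, after their values were seen. After group means were removed, the libraries that share a number correlated across 6570 records at 0.135, 0.251, 0.119, 0.203 and 0.147 (replicates 1 to 5). Each was over the threshold of 0.1 set for treating them as pairs. Correlations between libraries of different numbers are not given beside them, and the labels do not say what a number shares. Protein and promoter features planned for the members were not analysed here, and a list planned beside the others is not reported here.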

Additional observations from a re-analysis of the deposited data

Results flagged for a closer look

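Among the named members, 54 groups of 5 libraries were checked for a library that stands far from the rest of its group, and chance flags about 1 group in 20. Control replicate 1 stood apart for *dnaja3a*, at 34.4 CPM where the next control library had 25.8 CPM, and for *hsp90ab1*, at 10122 CPM where the next had 9377 CPM. Control replicate 4 stood apart for *dnajc7*, at 102.9 CPM where the next had 88.9 CPM.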

How the results depend on the processing

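Over 17 alternatives the number of records called was between 83 and 181, 117 in the fit reported, and it moved by over 1.5 times only with the replicate block (181). The number of members called was 0 in that fit and in the same fit without each single library (0 to 0). It was 1 of 54, *hspa14*, with the replicate block (1.85%, beside 2.75% of all tested records) and with DESeq2 (beside 168 of 6570 records). With no filter on low counts it was 1 of 75, also *hspa14*, beside 164 of 13008 records. Those fits were not repeated without single libraries. The adjusted p of *hspa14* ranged from 0.00606 to 0.247, and its log2 fold change kept its sign under all 17, from -0.51 to -0.35 without single libraries. The block changed no other call of a named member. Signs turned for the following members, none of which passed in the fits that turned them. Outside the block fit, signs were compared only for the 27 members named by the rule above, so others may be missing here. With the replicate block *cct3* was at -0.0054, *hspb11* at -0.057 and *dnajc2* at 0.0033, and with no filter *cct3* was at -0.023 and *cct6a* at -0.022 in log2 fold change. Without single libraries the log2 fold changes ran from -0.26 to 0.039 for *hspb1*, -0.086 to 0.039 for *hsp90ab1*, -0.039 to 0.052 for *cct3*, -0.014 to 0.014 for *cct6a*, -0.097 to 0.069 for *cct8*, -0.018 to 0.097 for *cct2*, -0.14 to 0.0034 for *hspd1*, -0.075 to 0.082 for *dnajc7* and -0.14 to 0.034 for *hspbp1*. The BCV ratio of *cct4* was 3.39 with the replicate block and 1.90 to 2.52 without single libraries, that of *hsp90aa1.2* 1.95 to 2.53 and that of *hspb1* 1.39 to 1.88. The cause was not tested for any of these.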
